A study of Mus musculus with 12 samples.

Results

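The genes described here encode 5 transcription factors known from helper T cell lineages: Gata3, Maf, Ahr, Rora and Nfil3. They were chosen by gene symbol from the deposited table of raw counts, where they make up 5 of 55335 genes, and all 5 passed the filter on low counts. The libraries came from splenic CD8 T cells of OT-I mice on a C57BL/6 background, whose lymphocytes carry a transgenic receptor for an ovalbumin peptide. The cells were transduced with an empty control vector or with a retroviral vector carrying Batf3, a basic leucine zipper factor of the AP-1 family, and transduced cells were isolated by flow sorting. Sorted cells were cultured for 6 h. Non-stimulated cultures received 100 ng/ml of IL-15, and stimulated cultures received 1 µg/ml each of plate-bound antibody to CD3e and of antibody to CD28. The 4 groups had 3 libraries each, and the labels call the replicates technical. SDs, SEs and p-values below therefore measure the spread between these libraries only, not that between mice or transductions. IL-15 is named only for the non-stimulated cultures, so a difference between cultures can come from the antibodies or from IL-15, which cannot be told apart.

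GATA3 is a zinc finger factor that directs T cell development and the type 2 helper programme, and it is also used by CD8 T cells responding to cytokines. MAF is a large bZIP factor that acts on cytokine and inhibitory receptor genes in several helper subsets. AHR is a ligand-activated factor that is held in the cytosol by HSP90 chaperones, pairs with ARNT in the nucleus and is used by type 17 cells. RORα is an orphan nuclear receptor that is used by type 17 cells and by the circadian clock. NFIL3 is a bZIP repressor that competes with the PAR bZIP activators of the circadian clock and is used by type 2, NK and innate lymphoid cells.

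The libraries held between 14211564 and 14468231 counts each. Levels are given as CPM, counts scaled to a common library size by TMM factors with no pseudocount added, and as mean ± SD of 3 libraries where a group is summarised. A count of 3 stood for 0.191 to 0.228 CPM in a single library. That floor covers counting error only, because PCR reads without molecular identifiers are not independent molecules. As a check of the labels, Batf3 was at 6.76 ± 0.832 CPM in control non-stimulated and 18.3 ± 0.734 CPM in control stimulated cells, against 469.8 ± 3.67 and 427 ± 11.9 CPM with the Batf3 vector. Reads from the vector and from the endogenous Batf3 gene cannot be told apart in gene-level counts. The 4 CD8 T cell markers summed to between 1152 and 1529 CPM in every library. Cd4 was at 0.321 CPM or less in every group mean, and Lyz2, Ms4a1, Ncr1, Siglech and Fcer1a, which mark myeloid, B, NK, plasmacytoid dendritic and mast cells, were at 0 in every library. Other genes of those lists were not at 0. Group means in the order control non-stimulated, control stimulated, Batf3 non-stimulated and Batf3 stimulated were 1.90, 4.94, 4.66 and 8.95 CPM for the myeloid integrin Itgam, 9.12, 4.39, 11.1 and 7.10 CPM for the dendritic receptor Xcr1 and 3.03, 0.735, 0.788 and 0.863 CPM for the NK receptor Klrb1c. Klri2 reached 1.62 CPM and Adgre1 1.13 CPM in their highest groups, and the B cell and mast cell lists stayed under 1 CPM for each gene. Genes of the gamma delta T cell list were present: their sum was 134 to 144 CPM in control non-stimulated, 158 to 165 in Batf3 non-stimulated, 28.5 to 31.5 in control stimulated and 25.1 to 26.6 in Batf3 stimulated libraries. Of the dendritic list, Itgax, an integrin that activated CD8 T cells also make, was at 8.30 and 15.6 CPM in control and Batf3 non-stimulated and at 17.6 and 43.7 CPM in stimulated cells. Of the CD4 T cell list, Zbtb7b was at 13.98 and 22.9 CPM in control and Batf3 non-stimulated and at 8.87 and 9.13 CPM in stimulated cells, and Cd40lg was at 16.9 and 56.5 CPM in stimulated cells. The part of these markers in the results below was not tested. In bulk RNA, fewer cells of a type and less RNA per cell cannot be told apart.

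The 5 genes lie on 5 chromosomes (GRCm38, GENCODE M21). Gata3 (ENSMUSG00000015619) spans chr2:9857078-9890034 on the minus strand and has coding transcripts that start 11.4 kb apart. Maf (ENSMUSG00000055435) spans chr8:115682942-115707794, Ahr (ENSMUSG00000019256) chr12:35497974-35535038 and Nfil3 (ENSMUSG00000056749) chr13:52967209-52981073, all on the minus strand. Rora (ENSMUSG00000032238) spans chr9:68653786-69388246 on the plus strand, 734.5 kb in all, with coding transcripts that start 635.9 kb apart. The counts do not separate these starts. Of the genes that overlap a member or start within 5 kb of it, the highest was Gm48236, an antisense lincRNA over an exon of Ahr, at 0.813 CPM in its highest group, and none reached the tested set. On the same strand as Gata3, 9230102O04Rik overlaps an exon of Gata3, starts 494 bases from its start and was at 0.0246 CPM in its highest group. The counts do not show how reads lying in both genes were assigned.

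Of the 5 members, 3 had an entry in the RefSeq promoter table (GRCm38.p6), Gata3, Rora and Nfil3, and 250 bases before each start were searched for the motifs of AP-1 and of the members themselves. The sequences are shown because Gata3 and Rora rose and Nfil3 fell with the Batf3 vector, whose product binds AP-1 elements with JUN partners. Capitals mark the motif matches.
Gata3: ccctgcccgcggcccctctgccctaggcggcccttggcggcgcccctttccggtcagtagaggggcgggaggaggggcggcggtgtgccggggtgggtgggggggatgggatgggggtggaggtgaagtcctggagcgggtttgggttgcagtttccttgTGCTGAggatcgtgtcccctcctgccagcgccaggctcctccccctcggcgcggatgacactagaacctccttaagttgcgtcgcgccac
Rora: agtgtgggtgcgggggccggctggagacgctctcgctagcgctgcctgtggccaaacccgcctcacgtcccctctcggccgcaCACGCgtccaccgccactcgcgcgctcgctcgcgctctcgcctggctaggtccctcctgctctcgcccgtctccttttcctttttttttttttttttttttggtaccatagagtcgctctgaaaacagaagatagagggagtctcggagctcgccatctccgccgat
Nfil3: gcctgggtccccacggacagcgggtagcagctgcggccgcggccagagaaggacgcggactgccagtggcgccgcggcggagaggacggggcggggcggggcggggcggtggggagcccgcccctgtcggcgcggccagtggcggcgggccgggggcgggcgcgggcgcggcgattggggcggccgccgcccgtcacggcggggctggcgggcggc
The Gata3 window is chr2:9878601-9878850, before the downstream of its coding starts, with 70.0% G and C. The Rora window is chr9:68653536-68653785, before the upstream of its coding starts, with 61.2% G and C. For Nfil3 the 216 bases at chr13:52981074-52981289 are printed, and the remaining 34 bases, which lie in an annotated exon, are not. The full Nfil3 window of 250 bases had 81.6% G and C. Motifs were read on both strands. Neither AP-1 form, TGANTCA or TGACGTCA, occurred in any of the 3 windows, and they occurred in 6.75% and 1.55% of the table's 32851 promoter windows of the same length. The MAF core TGCTGA occurred 90 bases before the Gata3 start, and it occurred in 16.1% of all windows. The AHR core GCGTG, read as CACGC, occurred 167 bases before the Rora start, and it occurred in 28.2% of all windows. The ROR core AGGTCA occurred 12 bases before the RefSeq start of Nfil3, and it occurred in 14% of all windows. That match is in the stretch not printed and so lies inside the exon annotated by GENCODE M21, not before the GENCODE start. The GATA forms AGATAA and TGATAA (9.99% and 7.94% of all windows) and the NFIL3 element TTANGTAA (2.06%) were in none of the 3. A match here is a run of letters and no evidence of binding, and distal elements are outside these windows.

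**Figure D1:**
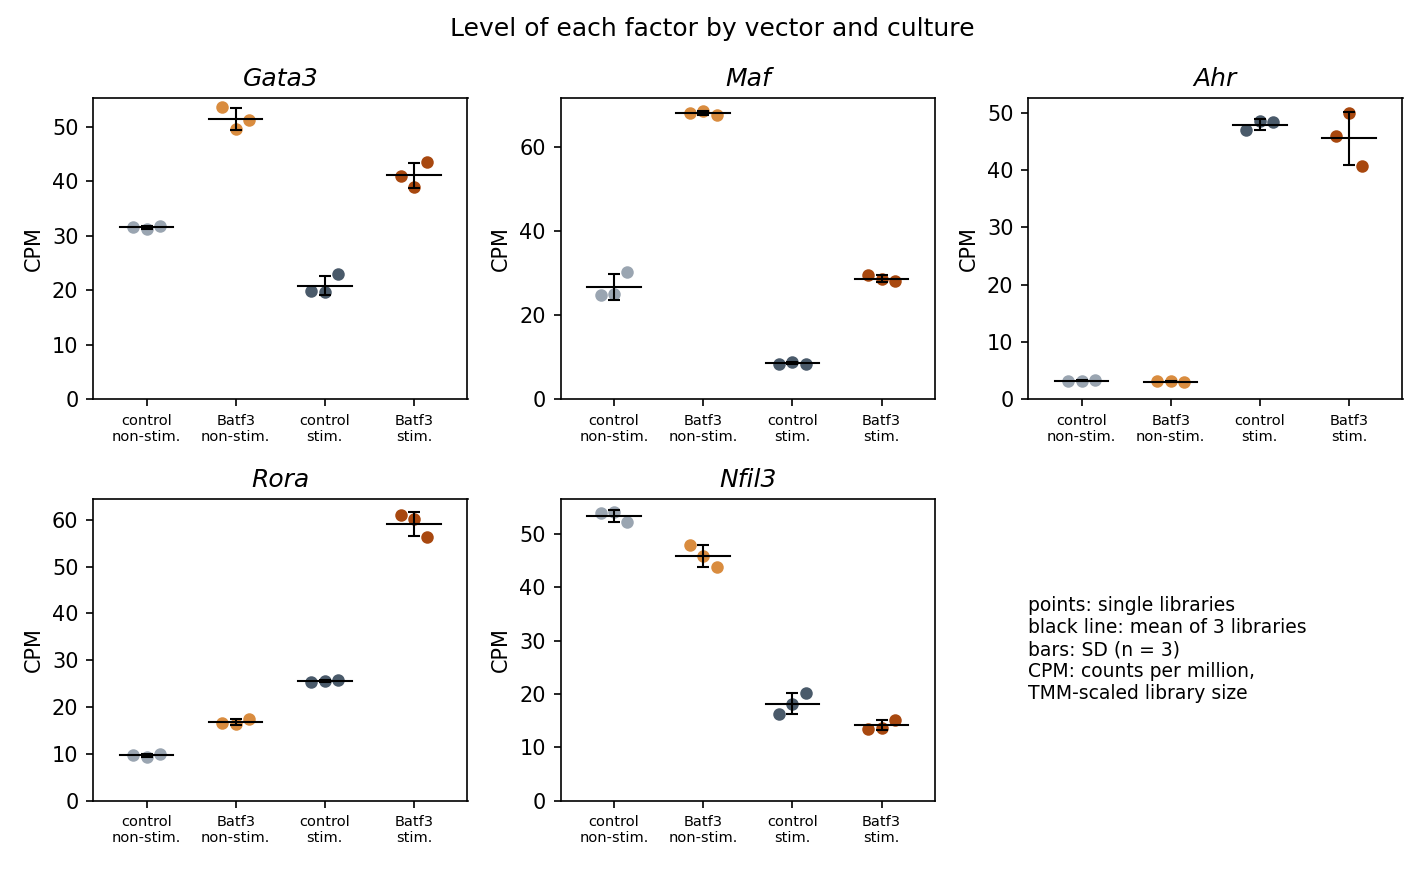
CPM (y axis, linear) of each of the 5 genes in the 4 groups (x axis); points are libraries, lines the mean and bars the SD of 3 libraries. Gata3, Maf and Rora were higher with the Batf3 vector in both cultures, Ahr differed by culture and not detectably by vector, and Nfil3 was highest in control non-stimulated cells.

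The first question was how forced Batf3 expression moved these factors. Gata3, Maf and Rora rose in both cultures, Nfil3 fell by a smaller amount in both, and Ahr passed the test in neither. In non-stimulated cells 4 of 5 members were called at an adjusted p under 0.05, 3 up and 1 down, beside 39.3% of all tested genes (16.3% up, 23.0% down). In stimulated cells it was again 4 of 5, 3 up and 1 down, beside 29.5% of all tested genes (14.8% up, 14.6% down). The median log2 change of the 5 was 0.71 and 0.98, beside -0.024 and 0.0016 over all tested genes. With library sizes alone in place of TMM factors, the share of calls over all genes that were up moved from 41.4% to 59.9% in non-stimulated and from 50.3% to 65.5% in stimulated cells, and each member's direction and call stayed.

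Maf showed the largest Batf3 effect of the 5 genes in both cultures. Its libraries were at 24.7, 24.9 and 30.2 CPM in control non-stimulated cells and at 67.9, 68.5 and 67.5 CPM in Batf3 non-stimulated cells. In stimulated cells they were at 8.44, 8.83 and 8.44 CPM with the control vector and at 29.5, 28.4 and 28.1 CPM with the Batf3 vector. The vectors did not overlap in either culture. The log2 change with Batf3 was 1.35 ± 0.06 (SE) in non-stimulated cells (edgeR, adjusted p = 6.64e-28), 2.55-fold. It was 1.74 ± 0.10 in stimulated cells (edgeR, adjusted p = 6.25e-25), 3.34-fold. Over the 4 groups Maf was lowest in control stimulated cells, at 8.57 ± 0.224 CPM, and highest in Batf3 non-stimulated cells, at 68.0 ± 0.541 CPM. The middle places were held by control non-stimulated (26.6 ± 3.09 CPM) and Batf3 stimulated cells (28.7 ± 0.740 CPM), whose libraries overlapped. Their difference did not pass the test (log2 0.11 ± 0.07, interval -0.029 to 0.24, edgeR, adjusted p = 0.151). In that comparison, which crosses vector and culture, 80.1% of all tested genes were called (39.9% up, 40.2% down). That the Maf difference did not pass rests on 1 library: without control non-stimulated replicate 3 it was 0.19 (edgeR, adjusted p = 0.0155). It was -0.033 with library sizes alone.

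Gata3 rose with Batf3 in both cultures. Control non-stimulated libraries were at 31.6, 31.2 and 31.8 CPM and Batf3 non-stimulated libraries at 53.6, 49.7 and 51.3 CPM. Control stimulated libraries were at 19.9, 19.8 and 23.0 CPM and Batf3 stimulated libraries at 41.0, 38.9 and 43.5 CPM. All 6 Batf3 libraries were above all 6 control libraries. The log2 change with Batf3 was 0.71 ± 0.06 in non-stimulated cells (edgeR, adjusted p = 1.09e-15), 1.63-fold, and 0.98 ± 0.07 in stimulated cells (edgeR, adjusted p = 1.09e-18), 1.97-fold. From low to high the groups were control stimulated (20.9 ± 1.80 CPM), control non-stimulated (31.6 ± 0.329), Batf3 stimulated (41.1 ± 2.32) and Batf3 non-stimulated (51.5 ± 1.98). Each neighbouring pair in that order passed the test, the closest by log2 change being the stimulated and non-stimulated Batf3 cells.

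Rora rose with Batf3 and with stimulation. It was at 9.82, 9.34 and 9.86 CPM in control non-stimulated and at 16.6, 16.3 and 17.4 CPM in Batf3 non-stimulated libraries. In stimulated cells it was at 25.3, 25.7 and 25.7 CPM with the control vector and at 61.1, 60.2 and 56.3 CPM with the Batf3 vector. No 2 groups overlapped, and Batf3 stimulated cells stood highest. The log2 change with Batf3 was 0.79 ± 0.09 in non-stimulated cells (edgeR, adjusted p = 2.37e-11), 1.73-fold, and 1.21 ± 0.06 in stimulated cells (edgeR, adjusted p = 9.96e-25), 2.32-fold. The middle neighbours of the order, Batf3 non-stimulated and control stimulated cells, also differed, with the former lower by a log2 change of -0.61 ± 0.08 (edgeR, adjusted p = 7.36e-11). In that comparison 83.5% of all tested genes were called (42.4% up, 41.1% down).

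Nfil3 fell with Batf3 in both cultures. Non-stimulated libraries were at 54.0, 54.1 and 52.2 CPM with the control vector and at 48.1, 46.0 and 43.9 CPM with the Batf3 vector. Stimulated libraries were at 16.3, 18.1 and 20.2 CPM with the control vector and at 13.4, 13.7 and 15.2 CPM with the Batf3 vector. The vectors did not overlap in either culture, although the lowest control stimulated library and the highest Batf3 stimulated library were close. The log2 change was -0.22 ± 0.06 in non-stimulated cells (edgeR, adjusted p = 0.00145) and -0.37 ± 0.09 in stimulated cells (edgeR, adjusted p = 0.000723). These correspond to 0.860 and 0.776 of the control level.

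Ahr was the member in which no Batf3 effect was detected. Its libraries were at 3.25, 3.18 and 3.37 CPM in control non-stimulated and at 3.12, 3.20 and 2.94 CPM in Batf3 non-stimulated cells. In stimulated cells they were at 46.9, 48.5 and 48.4 CPM with the control vector and at 45.9, 50.01 and 40.7 CPM with the Batf3 vector. The vectors overlapped in both cultures, and Batf3 stimulated cells had the widest spread. The log2 change with Batf3 was -0.081 ± 0.17 in non-stimulated cells (interval -0.42 to 0.26, edgeR, adjusted p = 0.751) and -0.075 ± 0.063 in stimulated cells (interval -0.20 to 0.049, edgeR, adjusted p = 0.416). A miss of the threshold does not show that the levels were equal. The interval is wider in non-stimulated cells, where Ahr was low.

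**Figure D2:**
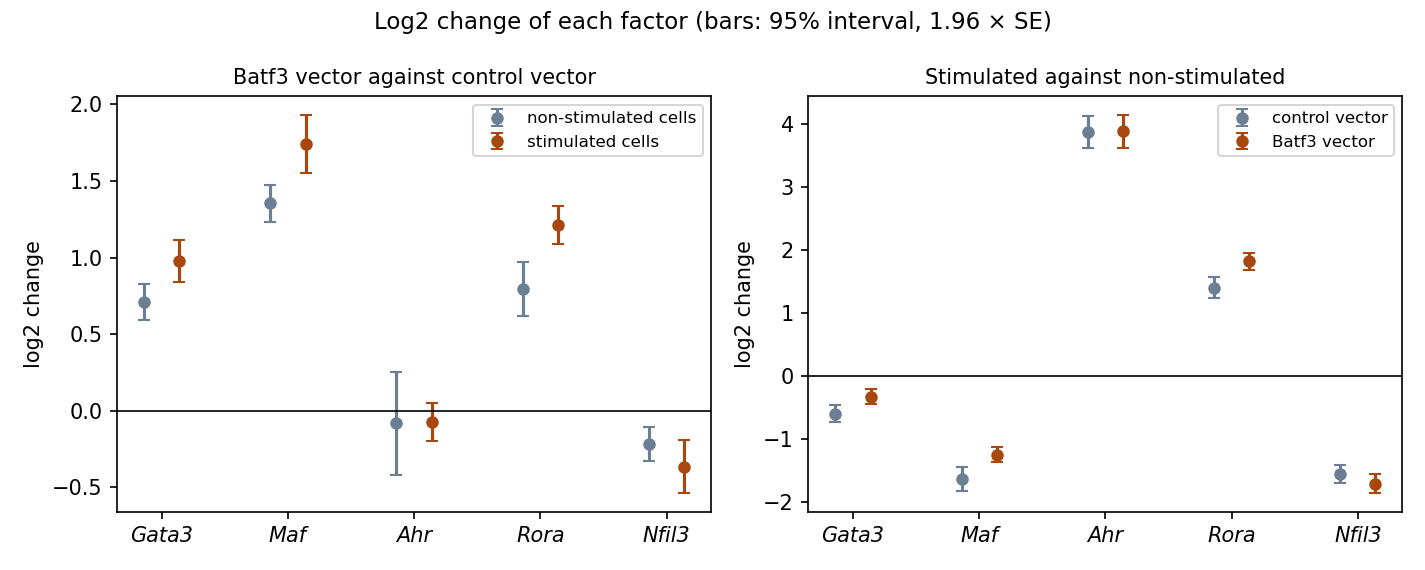
Log2 change (y axis) of each gene (x axis) with the Batf3 vector against the control vector in each culture (left) and with stimulation for each vector (right); bars are 95% intervals. The intervals of Ahr cross 0 on the left, and Ahr has the largest change of the 5 on the right, 3.87 and 3.88.

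The second question was how the factors differed between the cultures. Ahr and Rora rose with stimulation and Gata3, Maf and Nfil3 fell, with either vector. All 5 members were called with the control vector, beside 80.3% of all tested genes (39.6% up, 40.7% down), and all 5 with the Batf3 vector, beside 82.7% (41.2% up, 41.4% down). With most tested genes called, these counts say little about the 5 genes as a set, and the sizes carry the description. The median log2 change of the 5 was -0.59 and -0.32, beside -0.0083 and 0.011 over all tested genes. With library sizes alone the median over all genes moved to -0.19 and -0.20, and no member changed direction or call.

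Ahr rose from 3.27 ± 0.0992 to 47.9 ± 0.895 CPM with the control vector, a log2 change of 3.87 ± 0.13 (edgeR, adjusted p = 2.29e-42) or 14.6-fold. With the Batf3 vector it rose from 3.09 ± 0.131 to 45.5 ± 4.69 CPM, a log2 change of 3.88 ± 0.13 (edgeR, adjusted p = 2.93e-42). Rora rose from 9.67 ± 0.291 to 25.6 ± 0.209 CPM with the control vector (log2 1.40 ± 0.09, edgeR, adjusted p = 2.35e-23). With the Batf3 vector Rora rose from 16.8 ± 0.574 to 59.2 ± 2.59 CPM (log2 1.82 ± 0.07, edgeR, adjusted p = 1.22e-34). These were the members that were higher in stimulated cells.

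Nfil3 fell from 53.4 ± 1.07 to 18.2 ± 1.94 CPM with the control vector (log2 -1.55 ± 0.07, edgeR, adjusted p = 5.63e-30). With the Batf3 vector it fell from 46.0 ± 2.08 to 14.1 ± 0.931 CPM (log2 -1.70 ± 0.08, edgeR, adjusted p = 1.04e-30). Maf fell by a log2 change of -1.63 ± 0.10 with the control vector (edgeR, adjusted p = 2.94e-25) and -1.25 ± 0.06 with the Batf3 vector (edgeR, adjusted p = 9.12e-28). Gata3 had the smallest change, -0.59 ± 0.07 with the control vector (edgeR, adjusted p = 2.80e-11) and -0.32 ± 0.06 with the Batf3 vector (edgeR, adjusted p = 1.03e-06). For Gata3 the vector and the culture thus moved the level in opposite directions, and Batf3 stimulated cells stayed above control non-stimulated cells by a log2 difference of 0.38 ± 0.06 (edgeR, adjusted p = 1.55e-07).

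The third question was whether the Batf3 effect differed between the cultures, tested as the effect in stimulated minus the effect in non-stimulated cells. It was larger in stimulated cells for 3 of the 5 genes, beside 20.7% of all tested genes called, 14.6% upward and 6.08% downward. The difference in log2 effect was 0.42 ± 0.11 for Rora (edgeR, adjusted p = 0.00312), 0.39 ± 0.11 for Maf (edgeR, adjusted p = 0.00776) and 0.27 ± 0.09 for Gata3 (edgeR, adjusted p = 0.0265). It was 0.0066 ± 0.18 for Ahr (interval -0.35 to 0.37, edgeR, adjusted p = 0.990) and -0.15 ± 0.10 for Nfil3 (interval -0.35 to 0.057, edgeR, adjusted p = 0.358). The median of the 5 was 0.27, beside 0.054 over all tested genes. Rora kept its call in all 18 alternatives (0.36 to 0.46). The Gata3 call was lost with library sizes alone (0.24, adjusted p = 0.0551), with DESeq2 (0.26, adjusted p = 0.0777) and without a filter on low counts (0.23, edgeR, adjusted p = 0.132). It was also lost without control stimulated replicate 1 (0.20, edgeR, adjusted p = 0.171) or 2 (0.20, edgeR, adjusted p = 0.192), Batf3 non-stimulated replicate 2 (0.24, edgeR, adjusted p = 0.0722), or Batf3 stimulated replicate 1 (0.24, edgeR, adjusted p = 0.0778) or 3 (0.23, edgeR, adjusted p = 0.0794). The Maf call was lost without control non-stimulated replicate 3 (0.29, edgeR, adjusted p = 0.0570) and without control stimulated replicate 1 (0.34, edgeR, adjusted p = 0.05004) or 3 (0.34, edgeR, adjusted p = 0.0541).

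Levels of different genes were compared per kb of exon. Nfil3 was the highest of the 5 in control non-stimulated (26.4 ± 0.526 CPM per kb), Batf3 non-stimulated (22.7 ± 1.03) and control stimulated cells (8.97 ± 0.959). In Batf3 stimulated cells Gata3 was highest, at 10.3 ± 0.584 CPM per kb, with Nfil3 in the third place at 6.96 ± 0.460. Ahr was lowest in both non-stimulated groups (0.530 ± 0.0161 and 0.501 ± 0.0212 CPM per kb) and held the second place in both stimulated groups (7.78 ± 0.145 and 7.39 ± 0.760). Maf was lowest in both stimulated groups, at 1.04 ± 0.0272 with the control and 3.48 ± 0.0898 with the Batf3 vector. Among 15689 tested genes with a length, Nfil3 stood at percentile 84.3 of the level per kb in control non-stimulated cells and Ahr at percentile 15.2, and in control stimulated cells they stood at percentiles 64.3 and 61.6. The order of the 5 was the same in each group with the longest transcript as the length.

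**Figure D3:**
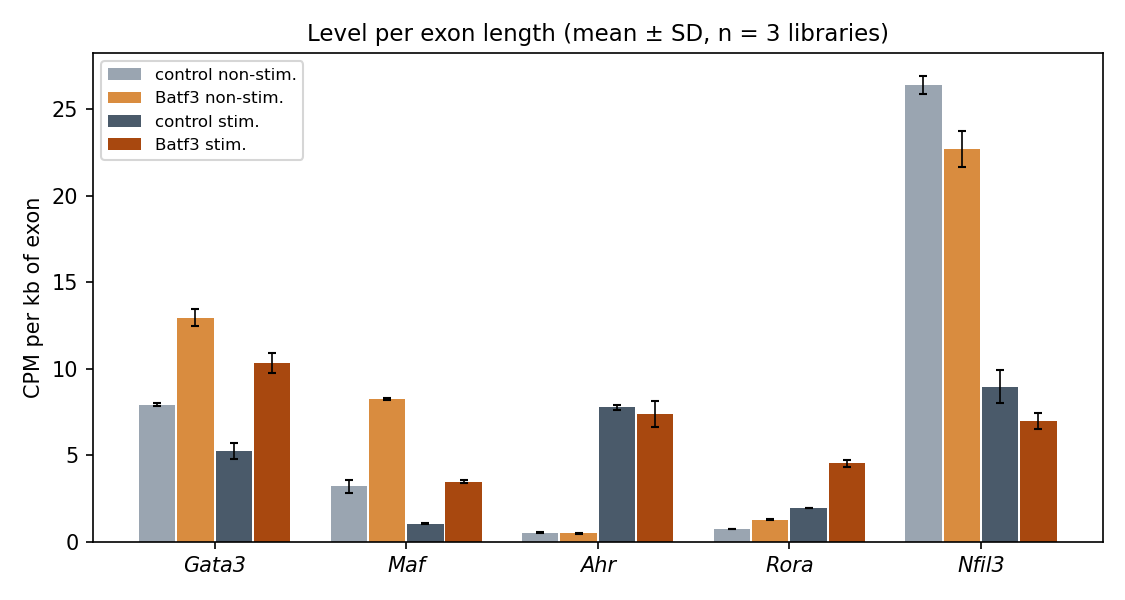
CPM per kb of exon (y axis, from 0) of each gene (x axis) in the 4 groups; bars are means and lines the SD of 3 libraries. Nfil3 is highest in 3 groups and Gata3, at 10.3, in Batf3 stimulated cells.

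Genes whose pattern over the 12 libraries was most like each member were found by the root mean square (RMS) difference of centred log2(CPM + 0.5) values among 9110 other genes whose mean was 5 CPM or more. The 12 libraries fall into 4 groups, so these are likenesses of 4 group means. Nearest to Gata3 were Il18r1, a subunit of the IL-18 receptor (RMS difference 0.0868), Akap13 (0.149) and Fam129b (0.161). Nearest to Maf were Trerf1 (0.225), St6gal1, a sialyltransferase (0.245), and Wscd2 (0.279), all farther off than the nearest genes of the other members. Nearest to Ahr were the kinase Nek6 (0.103), the orphan nuclear receptor Nr4a1, an immediate early gene of T cell receptor signalling (0.119), and Nfkbid, an atypical IκB (0.124). Nearest to Rora were the inhibitory receptor Tigit (0.105), Rab11fip4 (0.154) and Rn7sk (0.168). Nearest to Nfil3 were Socs1, a feedback inhibitor of cytokine signalling (0.0832), Bbx (0.0912) and Sept1 (0.0931). Pearson's r was 0.95 or more with 2358 of the 9110 genes for Ahr and with 1744 for Nfil3. It was so with 21 for Gata3, 38 for Maf and 88 for Rora. The genes named for Ahr and Nfil3 thus share their pattern with many others.

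Genes that belong to the pathways of the 5 factors were then read from lists. The lists were written with earlier results of these data known, so their counts and medians are descriptions and no independent evidence. A list gene entered the test when enough counts were present in as few as 3 libraries, so those present in 1 culture only had to differ between cultures, and counts are given for the Batf3 effect. The same holds there for Il21 and Ccr3, which had under 10 counts in every control library and passed through Batf3 libraries. They are counted among the rises below, Il21 in stimulated cells in the MAF and type 17 lists and Ccr3 in both cultures in the type 2 list, and support nothing. Counts of each list are beside the shares of all tested genes given above, 16.3% up and 23.0% down in non-stimulated and 14.8% up and 14.6% down in stimulated cells.

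Of 18 type 2 genes 14 were tested. With Batf3, 2 rose and 3 fell in non-stimulated cells and 7 rose and 5 fell in stimulated cells, with medians of -0.10 and 0.015. Il13, a type 2 effector cytokine, had 1 count in all control non-stimulated libraries and 0 in all Batf3 non-stimulated libraries. In stimulated libraries Il13 was at 5.25, 5.56 and 6.46 CPM with the control vector and at 25.7, 25.3 and 25.3 CPM with the Batf3 vector, groups that did not overlap (log2 2.14 ± 0.12, edgeR, adjusted p = 1.17e-23). The chemokine receptor Ccr8 rose in both cultures, from 0.353 ± 0.251 to 1.21 ± 0.282 CPM and from 1.32 ± 0.307 to 5.90 ± 0.813 CPM (log2 1.76 ± 0.45 and 2.15 ± 0.26). Il1rl1, the IL-33 receptor, rose in stimulated cells from 51.3 ± 0.827 to 119.9 ± 6.65 CPM (log2 1.22 ± 0.05, edgeR, adjusted p = 7.63e-30). Other cytokines of the list fell there: Il24 by 1.92 ± 0.14, Il10 by 1.58 ± 0.08 and Csf2 by 0.67 ± 0.03 on the log2 scale. The transcriptional repressor Gfi1 fell in non-stimulated cells (log2 -0.62 ± 0.05, edgeR, adjusted p = 6.10e-15). Zfpm1 also fell there (log2 -0.14 ± 0.05, edgeR, adjusted p = 0.0266), with libraries that overlapped between the vectors. The Zfpm1 call was lost with library sizes alone (-0.062), with DESeq2 (-0.14), without a filter on low counts (-0.12) and in the 2-group fit (-0.10). It was also lost in most fits that left out 1 library. In stimulated cells Zfpm1 was called in the other direction (log2 0.14 ± 0.04, edgeR, adjusted p = 0.00938). That call was lost with DESeq2 and without control stimulated replicate 1. Il4, Il5, Il9 and Il17rb were too low to test, and Il4 had at most 7 counts over the 3 libraries of any group. The list moved in both directions, and its median was near that of all genes.

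Of 16 MAF-associated genes 10 were tested, and with Batf3 5 rose and 1 fell in non-stimulated and 6 rose and 3 fell in stimulated cells, with medians of 0.45 and 0.83. The checkpoint receptor Ctla4 was at 89.9 ± 3.10 CPM in control and 165.8 ± 4.93 CPM in Batf3 non-stimulated cells (log2 0.88 ± 0.04, edgeR, adjusted p = 5.33e-29). In stimulated libraries Ctla4 was at 8.29, 8.37 and 8.37 CPM with the control vector and at 255.7, 254.1 and 244.9 CPM with the Batf3 vector, a log2 change of 4.91 ± 0.08 (edgeR, adjusted p = 1.76e-60) or 30.1-fold. The costimulatory receptor Icos rose by 0.79 ± 0.04 and 2.04 ± 0.06, Tigit by 0.84 ± 0.07 and 1.36 ± 0.05 and the repressor Prdm1 by 0.88 ± 0.11 and 1.79 ± 0.15 in non-stimulated and stimulated cells. Il21 had 0 counts in both non-stimulated groups, 5, 9 and 7 counts in control stimulated and 31, 30 and 23 counts in Batf3 stimulated libraries. It passed the filter through that last group only, so its place among the rises supports nothing. Il10, a cytokine that MAF is known to induce, went the other way in stimulated cells, from 51.2 ± 2.19 to 17.1 ± 1.62 CPM, and so did Lag3 (log2 -0.46 ± 0.03) and Havcr2 (-0.23 ± 0.03). Il10 also stands in the type 2 list, so its fall is the same one counted there. The fall of Havcr2 in non-stimulated cells, the 1 there, lost its call in 12 of 19 alternatives.

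Of 18 genes of the AHR pathway 12 were tested, and with Batf3 2 rose and 5 fell in non-stimulated and 3 rose and 4 fell in stimulated cells, with medians of -0.15 and -0.11. Gpr15, a homing receptor gene known to respond to AHR ligands, rose with Batf3 from 25.9 ± 1.74 to 60.4 ± 1.63 CPM in non-stimulated cells (log2 1.22 ± 0.07, edgeR, adjusted p = 2.09e-24). In stimulated cells Gpr15 was lower and rose with Batf3 from 1.45 ± 0.424 to 6.32 ± 0.817 CPM (log2 2.12 ± 0.21, edgeR, adjusted p = 1.81e-14). Tiparp, another ligand-response gene, rose by 0.22 ± 0.06 and 0.46 ± 0.06. Of the chaperone genes, Hsp90aa1 (log2 -0.54 ± 0.03 and -0.16 ± 0.03), Hsp90ab1 (-0.53 ± 0.02 and -0.12 ± 0.02) and Ptges3 (-0.41 ± 0.06 and -0.23 ± 0.05) fell in both cultures. Ahrr, the AHR repressor, fell with stimulation from 13.4 ± 0.606 to 1.17 ± 0.268 CPM with the control vector (log2 -3.51 ± 0.24, edgeR, adjusted p = 3.60e-26), and Gpr15 fell by 4.15 ± 0.20 on the log2 scale. Both thus went opposite to Ahr itself between the cultures. Cyp1a1, Cyp1a2, Cyp1b1, Aldh3a1, Lpcat2 and Il22 were too low to test: Cyp1a1 had at most 4 counts over the 3 libraries of any group and Cyp1b1 at most 12.

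**Figure D4:**
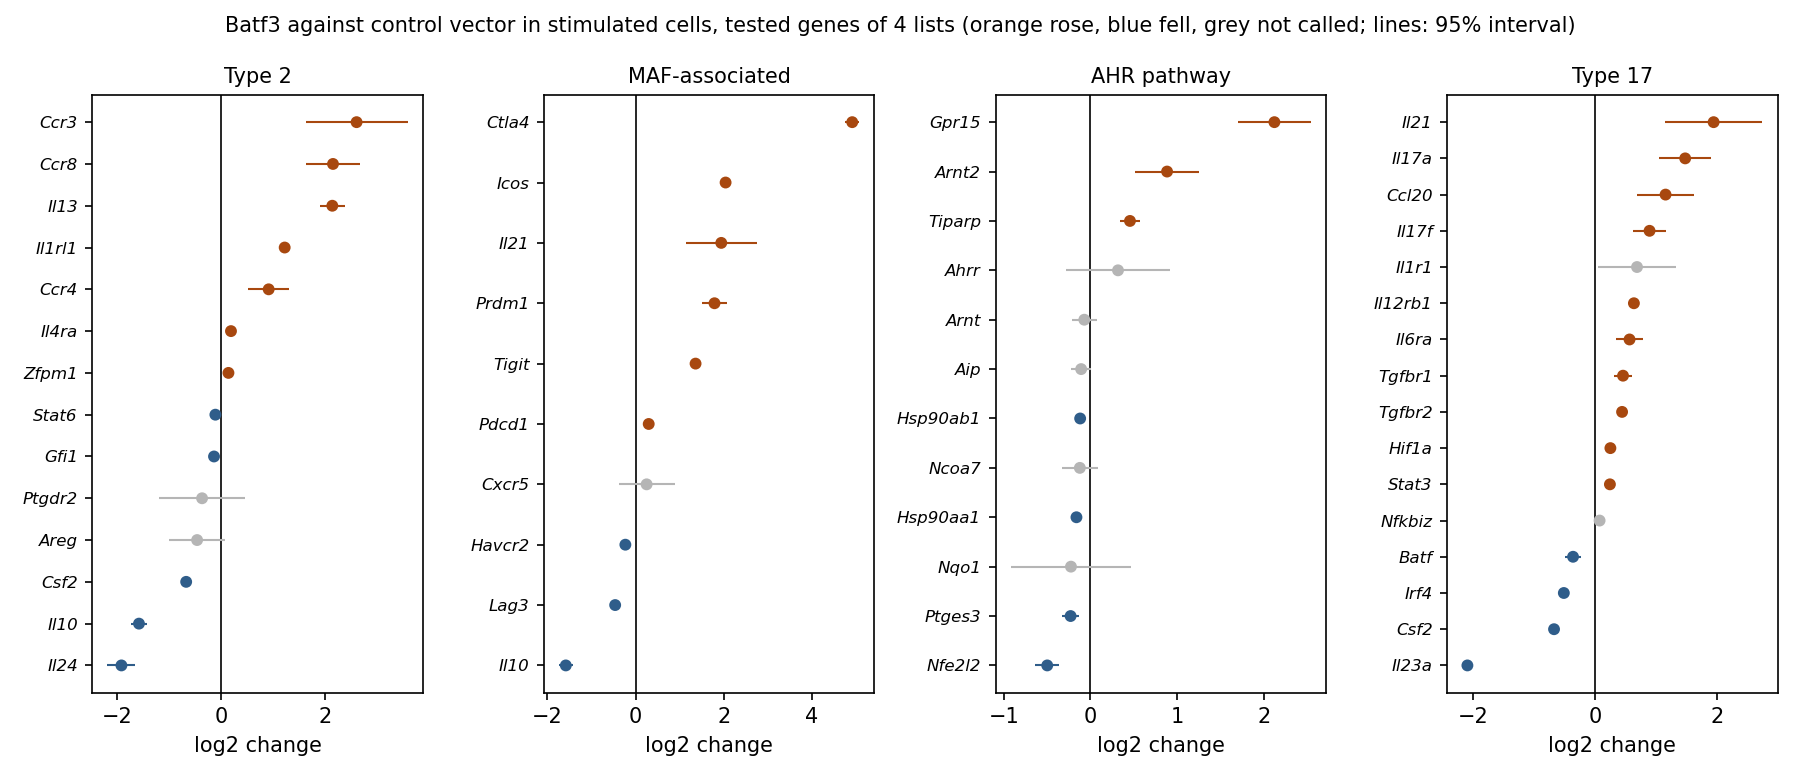
Log2 change (x axis) with the Batf3 vector in stimulated cells for the tested genes (y axis) of 4 lists; orange rose, blue fell, grey did not pass the test, and lines are 95% intervals. All 4 lists spread to both sides of 0. Of 16 type 17 genes 10 rose and 4 fell, beside 14.8% up and 14.6% down of all tested genes. Il21, counted among the rises, passed the filter through Batf3 libraries only. The 4 panels have different x ranges.

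Of 20 type 17 genes 16 were tested, and with Batf3 4 rose and 3 fell in non-stimulated and 10 rose and 4 fell in stimulated cells, with medians of 0.0059 and 0.45. Il17a, the defining type 17 cytokine, had 0 counts in all 6 non-stimulated libraries. In stimulated libraries Il17a was at 2.51, 2.28 and 1.60 CPM with the control vector and at 5.94, 5.70 and 6.19 CPM with the Batf3 vector (log2 1.48 ± 0.22, edgeR, adjusted p = 7.13e-08). Il17f rose there from 6.47 ± 1.04 to 12.01 ± 1.36 CPM (log2 0.89 ± 0.14) and the chemokine Ccl20 from 1.98 ± 0.349 to 4.42 ± 0.488 CPM (log2 1.16 ± 0.24). Il23a, a cytokine subunit that maintains type 17 cells, fell there from 304.2 ± 2.12 to 71.3 ± 1.33 CPM (log2 -2.09 ± 0.04, edgeR, adjusted p = 2.20e-46). Irf4, a partner of BATF factors, fell by 0.51 ± 0.02 and Csf2 by 0.67 ± 0.03 on the log2 scale. Il23r, Ccr6, Il22 and Rorb were too low to test: Ccr6 had at most 1 count in any group, and Il23r, the receptor subunit for IL-23, at most 9. Csf2 also stands in the type 2 list and Il21 in the MAF list. The 4 rises in non-stimulated cells became 2 without control replicate 1 or Batf3 replicate 2. Of the gamma delta T cell list, Trdc was at 28.4 CPM in control and 21.9 CPM in Batf3 stimulated cells, Tcrg-C1 at 1.06 and 2.22 CPM, Tcrg-C2 at 0.254 and 0.912 CPM and Sox13 at 0.456 and 0.716 CPM. Their part in the type 17 result was not tested.

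Of 18 clock and PAR bZIP genes 17 were tested, and with Batf3 5 rose and 1 fell in non-stimulated and 2 rose and 0 fell in stimulated cells, with medians of 0.12 and 0.027. The core clock activator Arntl, whose promoter ROR factors are known to activate, rose in both cultures, by 0.50 ± 0.10 (edgeR, adjusted p = 2.30e-05) and 0.44 ± 0.10 (edgeR, adjusted p = 0.000527). The PAR bZIP activator Tef rose in non-stimulated cells from 23.4 ± 2.37 to 34.0 ± 1.19 CPM (log2 0.54 ± 0.07, edgeR, adjusted p = 1.72e-09). Per2, a clock repressor, fell there from 7.37 ± 0.289 to 3.53 ± 0.710 CPM (log2 -1.06 ± 0.14, edgeR, adjusted p = 2.51e-09). The second rise in stimulated cells, of Cry1 (log2 0.15 ± 0.06), lost its call in 13 of 19 alternatives. The other rises in non-stimulated cells were Nr1d1 (log2 0.74 ± 0.27), Nr1d2 (0.41 ± 0.08) and Npas2 (0.35 ± 0.14), and the calls of Nr1d1 and Npas2 were lost in 4 and 6 of 19 alternatives. The 5 rises in non-stimulated cells became 3 without control replicate 1, Batf3 replicate 1 or Batf3 replicate 2.

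Of 13 listed relatives of the GATA, MAF and ROR factors, with the BACH partners of the small MAFs counted in, 6 were tested. With Batf3, 2 rose and 3 fell in non-stimulated and 2 rose and 0 fell in stimulated cells, with medians of 0.00012 and 0.17. The small MAF genes Maff (log2 -0.63 ± 0.11), Mafk (-0.28 ± 0.05) and Mafg (-0.21 ± 0.06), which lack a transactivation domain, fell in non-stimulated cells, where Maf rose. The 2 rises in each culture were those of the BACH factors: Bach1 by 0.21 ± 0.06 and 0.63 ± 0.05 and Bach2 by 0.32 ± 0.05 and 0.50 ± 0.05. None of the tested GATA and MAF family genes of the list was called upward in either culture. Gata1 was tested as well and was at 3.00 ± 0.665 CPM in control and 3.96 ± 0.286 CPM in Batf3 non-stimulated cells, a difference that did not pass the test (log2 0.40 ± 0.20, edgeR, adjusted p = 0.113). Erythroid markers stood at 2.18 CPM or less in sum in every library, with Hbb-bs at 0. In non-stimulated libraries their sum was 0.397 to 0.663 CPM with the control vector and 1.02 to 2.18 CPM with the Batf3 vector. Hba-a1 was the highest of them there, at 0.420 and 1.49 CPM. Their part in the Gata1 level was not tested. Gata2, Gata4, Gata5, Gata6, Mafa, Nrl and Rorb were too low to test. The 2 rises in non-stimulated cells became 1 without control replicate 2, where Bach1 lost its call (0.16, edgeR, adjusted p = 0.0753). Mafg lost its call there with library sizes alone (-0.14) and without control replicate 1 (-0.13, edgeR, adjusted p = 0.120).

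**Figure D5:**
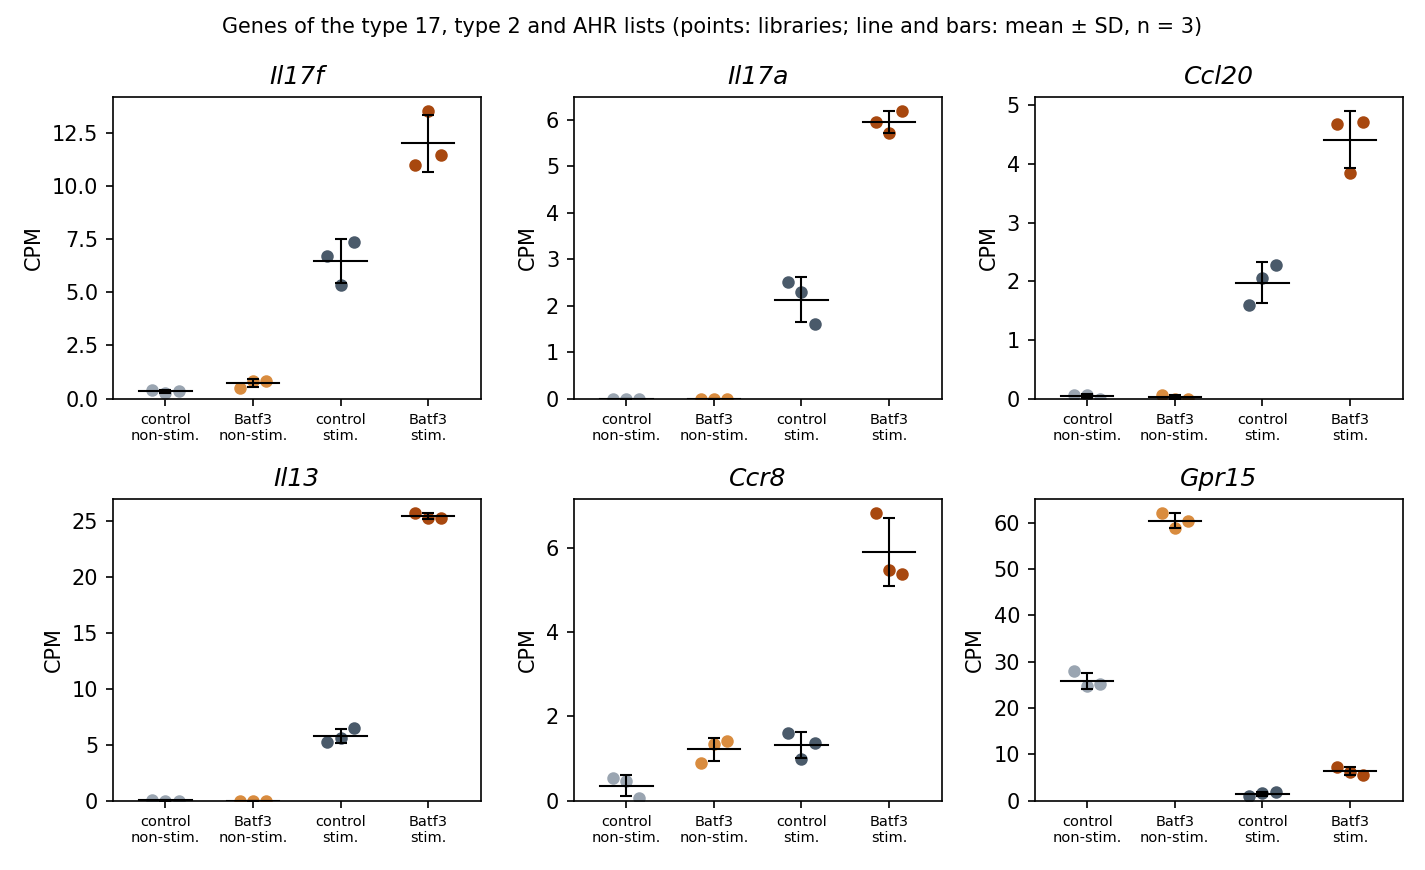
CPM (y axis, linear) of 6 genes from the type 17, type 2 and AHR lists in the 4 groups (x axis), chosen after their values were seen; points are libraries, lines and bars the mean and SD of 3. Il17a, Il17f, Ccl20 and Il13 are near 0 in non-stimulated cells and higher with the Batf3 vector in stimulated cells. Gpr15 is highest in Batf3 non-stimulated cells, at 60.4 CPM. All 6 were higher with the Batf3 vector in stimulated cells. Il23a, Il10, Il24 and Csf2 of the same lists fell there and are not plotted.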

How the data were processed

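The deposited table holds raw counts of reads per gene, which the authors made with STAR 2.7 and featureCounts on GRCm38, per the submitters' processing notes. Per the labels' protocols, a stranded poly-A library kit was used on 100 ng of RNA. For the annotation release, strand setting and multiply aligned reads, the settings were not given in the sources used here. All 12 columns matched 1 sample each. Of the gene IDs, 55154 matched GENCODE M21 and 181 did not.

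The analysis used edgeR 4.0.16 under R 4.3.3 (quasi-likelihood test, robust, TMM, filterByExpr defaults, 15702 genes tested). All 12 libraries entered a model of 4 group means with 8 residual degrees of freedom, with two-sided tests and Benjamini-Hochberg adjustment over all genes, called under 0.05. SEs come from the fit's information matrix and never fall below counting error. Intervals are 95%. The scripts were tested on simulated data. Batf3 stimulated against control non-stimulated cells, and Batf3 non-stimulated against control stimulated cells, were added after the data were seen. Alternatives were other size factors, DESeq2 1.42.0, other filters, 2-group fits, a replicate block and leaving out each library.

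Members and lists were chosen with earlier results of these data known. From each list and comparison, up to 3 called genes in each direction with the largest change and at least 1 CPM in the higher group could be named. Some listed genes are not reported here.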

Additional observations from a re-analysis of the deposited data

Results flagged for a closer look

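The Batf3 effect differed between the cultures, by a test of the difference itself, for 3 of the 5 genes. The effect in stimulated minus that in non-stimulated cells was 0.27 on the log2 scale for Gata3 (edgeR, adjusted p = 0.0265), 0.39 for Maf (edgeR, adjusted p = 0.00776) and 0.42 for Rora (edgeR, adjusted p = 0.00312). The median over all tested genes was 0.054, and 20.7% of them passed the same test, 14.6% upward and 6.08% downward. The call was kept in 10 of 18 alternatives for Gata3, in 15 for Maf and in 18 for Rora.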

How the results depend on the processing

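Each of the 5 genes kept its direction and its side of the threshold for the Batf3 effect and the stimulation effect, 20 results, in all 19 alternatives. What changed was the difference of the Batf3 effect between cultures. For Gata3 it lost its call with library sizes alone (0.24), with DESeq2 (0.26) and without a filter on low counts (0.23), and it ranged from 0.20 to 0.31 when single libraries were left out. For Maf it ranged from 0.29 to 0.44 over left-out libraries. The Maf call was lost without control non-stimulated replicate 3 and without control stimulated replicate 1 or 3. For Ahr, never called, the sign turned with library sizes alone (-0.022), RLE size factors (-0.0072), DESeq2 (-0.0070) and no filter (-0.037), and ranged from -0.10 to 0.084 over left-out libraries. The number of members called upward was 1 to 3 over left-out libraries, with 1 without control stimulated replicate 1. Maf in Batf3 stimulated against control non-stimulated cells was -0.033 with library sizes alone. The causes were not tested.

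Of the list counts, 1065 of 1128 alternative values stayed within 1.5 times the count given. The type 2 genes that fell in stimulated cells were 3 with library sizes alone, and in non-stimulated cells, with the same scaling, the AHR pathway genes that rose were 4 and the type 17 genes that fell were 1. Over all genes, those that fell with Batf3 in non-stimulated cells were 3617 with TMM factors and 2404 with library sizes alone, and those that rose in the difference of effects were 2296, and 1524 without a filter. Ranked by Pearson's r in place of the RMS difference, 1 of the 3 nearest genes of Gata3, Maf and Rora remained and 0 for Ahr and Nfil3.

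No pairing by replicate number was seen. Correlations of deviations from the group means were -0.149 to 0.0806 for same-numbered libraries (18 pairs, 0 over 0.1). They were -0.199 to 0.153 for different-numbered libraries (36 pairs, 5 over 0.1). Such values do not show that pairing was absent. With a replicate block the difference of effects was 0.27 for Gata3, 0.39 for Maf and 0.42 for Rora, and no call of a member changed.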
